A study of Rattus norvegicus with 97 samples.

Results

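The Zfp-named genes are rat genes whose symbol is Zfp followed by a number, the rodent form of the zinc finger protein names. A gene was taken as a member where the array's annotation gave its probe set that single symbol. The rule found 220 genes among 14217 with a single symbol, measured by 341 of 31042 probe sets, and it used no expression value. Of the 220 members, 145 had 1 probe set and 75 had 2 or more, with at most 8. Each member was counted by its probe set with the highest mean over all arrays, and its other probe sets were set beside it.

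The series holds 97 Affymetrix rat arrays of the nucleus accumbens shell, the striatal region best known for its place in reward and drug seeking. There are 5 pairs of lines, written here with the line selected for high alcohol intake before the line selected for low intake: P/NP, HAD1/LAD1, HAD2/LAD2, AA/ANA and sP/sNP. The former is called the preferring and the latter the non-preferring line. There were 10 arrays per line, but 9 for LAD1, for sP and for sNP, and each array's label names its own animal. The labels give neither age, sex nor treatment, and the lines of a pair were bred apart, so a difference between them cannot be told apart from drift in the lines.

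Most zinc finger proteins of this naming carry tandem C2H2 fingers, small folds held by a zinc ion that read short stretches of DNA. Many join the fingers to a KRAB domain, which recruits the corepressor Trim28 and with it histone and DNA methylation, best known for silencing transposons. Such genes lie in tandem clusters that arose by duplication and differ between closely related species and strains. A minority with the same name have other roles, such as the CCCH proteins of the Zfp36 group, which bind AU-rich messenger RNA and speed its decay.

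Signals here are the deposited log2 RMA values, and a difference here is the mean of the preferring line minus the mean of its non-preferring line on that scale, with its standard error. A gene is called at a Benjamini-Hochberg adjusted p under 0.05 from limma, adjusted over all 31042 probe sets of that pair. Member signals ran from 4.57 to 12.87 with a median of 8.97 (all genes, median 9.05), and 196 of the 220 members lay above 6.43, the 30th percentile of all probe sets. A signal also depends on the probes, so no member's signal is read as more RNA than another's. The median SD between animals of a line was 0.14 over members. The Gapdh 3′ minus 5′ signal, a measure of RNA or label length, had line medians of 4.65 and 4.94 in HAD1 and LAD1, 2.88 and 2.87 in HAD2 and LAD2, and at most 0.44 in the other lines, so lines were tested only within a pair, and where ranges from several pairs are given they stand side by side as values and not as a comparison of RNA levels.

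Each array was scored on the 50 probe sets, no members, that best separate the lines among the other arrays of its pair. The scale runs from 0 at the non-preferring median to 1 at the preferring median. On it, 8 of the 97 arrays lay further than 0.3 from the value of their label. These 8, called departing arrays here, were P 9 and NP 9, HAD1 28 and LAD1 37, AA 19 and ANA 20, and sP 4 and sNP 4, with scores of 0.46 and 1.05, 0.0049 and 0.99, -0.015 and 0.91, and 0.40 and 0.48. No array was relabelled, and results that rest on them are given with and without them. These arrays were picked for lying off their own line, so leaving them out tends to widen the separation of the lines. In HAD1/LAD1 the share of all genes called rose from 0.95% to 3.5% without them. A smaller p or a lost overlap without them is therefore no added support for a member. In sP/sNP, where 15.1% of all genes were called, cell type markers also differed. There 10 of 11 spiny neuron markers were called, with a median difference of -0.94, and 1 of 4 measured markers of septum, pallidum and basal forebrain was called, with a median difference of 0.43. Also called were 2 of 4 endothelial, 2 of 5 astrocyte and 1 of 4 oligodendrocyte markers. No marker of cortex, microglia, or ependyma and choroid plexus was called in sP/sNP. In HAD2/LAD2, 2 of 4 oligodendrocyte, 2 of 4 endothelial, 1 of 5 microglia and 1 of 4 septal and pallidal markers were called. There 4.47% of all genes were called. In AA/ANA, 1 of 5 astrocyte and 1 of 5 microglia markers were called. No listed marker was called in P/NP or HAD1/LAD1, and no spiny neuron marker outside sP/sNP.

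Across the 5 pairs, 40 of the 220 members were called in at least 1 pair, or 18.2% beside 20.9% of all genes. Of these, 32 were called in exactly 1 pair, 5 in 2 pairs and 3 in 3 pairs (Zfp212, Zfp488 and Zfp707), and 180 members were called in none. In P/NP, 4 members were called (0.935% of all genes), all lower in P (0.443% of all genes were lower). In HAD1/LAD1, 3 members were called (0.95% of all genes), all lower in HAD1 (0.542% of all genes were lower). In HAD2/LAD2, 9 members were called (4.47% of all genes), 6 higher and 3 lower in HAD2, beside 1.79% and 2.68% of all genes in these directions. In AA/ANA, 9 members were called (1.84% of all genes), 1 higher and 8 lower in AA, beside 0.858% and 0.978%. In sP/sNP, 26 members were called (15.1% of all genes), 15 higher and 11 lower in sP, beside 8.76% and 6.39%. As a share of the members, these counts are 1.82%, 1.36%, 4.09%, 4.09% and 11.8%, above the share of all genes in P/NP, HAD1/LAD1 and AA/ANA and below it in HAD2/LAD2 and sP/sNP. In P/NP and HAD1/LAD1 this rests on 4 and 3 members, and no test was made of it. Without the departing arrays the counts were 6, 6, 9, 13 and 28, beside 1.96%, 3.5%, 4.47%, 3.85% and 17.7% of all genes. The HAD1/LAD1 share then turned, with 2.73% of members called against 3.5% of all genes, while the other pairs kept their side. The median member difference ran from -0.015 in P/NP to 0.0055 in HAD2/LAD2.

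**Figure D1:**
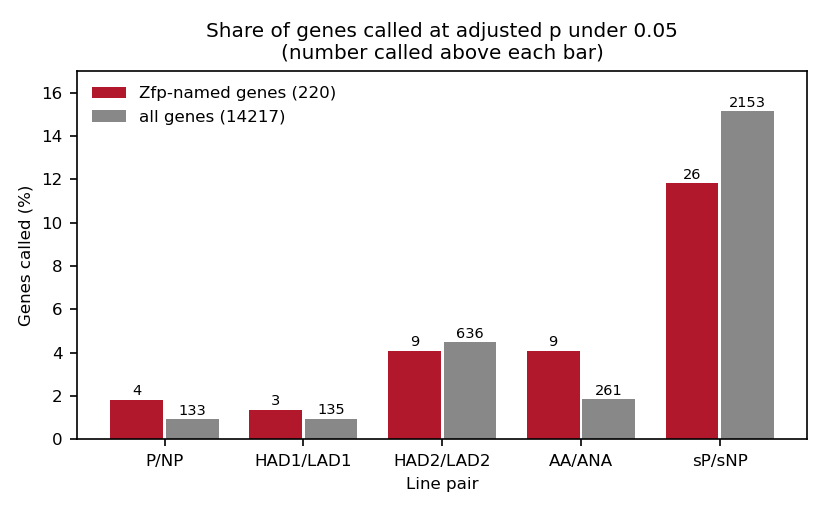
Bars give the percent of genes called at adjusted p under 0.05 in each line pair, red for the 220 Zfp-named genes and grey for all 14217 genes, with the number called above each bar. Members range from 1.36% in HAD1/LAD1 to 11.8% in sP/sNP, and all genes from 0.935% in P/NP to 15.1% in sP/sNP.

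Of the 51 calls, 35 belonged to genes with a single probe set. For the other 16, all probe sets of the gene shared the sign in 13, and another probe set was called the same way in 7. The exceptions were the 3 calls of Zfp212, whose probe sets moved apart and which is described next.

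Zfp212, a C2H2 zinc finger gene, was the only member with probe sets called with 1 sign in 3 or more of the 5 pairs. Its 2 probe sets ran in opposite directions. The brighter probe set (1386424_at) was lower in the preferring line of all 5 pairs and called lower in 3. The dimmer probe set (1380094_a_at) was higher in the preferring line of all 5 pairs and called higher in 4. Of 4525 genes with 2 or more probe sets, 0.155% had probe sets called in opposite directions in AA/ANA and 0.464% in sP/sNP, the pairs in which both Zfp212 probe sets were called. The suffix of the dimmer probe set marks a design that matches more than 1 transcript of the gene.

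The brighter probe set ran from 9.47 through a median of 9.76 to 10.14 in HAD1 and from 9.88 through 10.16 to 10.29 in LAD1, and the ranges overlapped. Its difference was -0.35 ± 0.079 (SE, limma adjusted p = 0.0318), and without the departing arrays it was -0.42 ± 0.070 with no overlap. In AA it ran from 10.04 to 10.24 (median 10.13) and in ANA from 10.20 to 10.41 (median 10.31), a difference of -0.17 ± 0.040 (limma adjusted p = 0.0217). In sP and sNP the medians were 10.23 and 10.39 and the difference -0.14 ± 0.041 (limma adjusted p = 0.0373). It was -0.10 ± 0.052 in HAD2/LAD2 and -0.04 ± 0.045 in P/NP, neither of them called. With the Gapdh measure as a covariate the calls in HAD1/LAD1 and sP/sNP were lost, at limma adjusted p = 0.0579 and 0.0866, and the one in sP/sNP also with the marker index (adjusted p = 0.72), an index of tissue composition given with the sP/sNP calls.

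The dimmer probe set had a mean signal of 5.68 over all arrays, below the 30th percentile, and the files give no detection call for it. In AA it ran from 5.10 through a median of 5.25 to 5.70, and in ANA from 4.70 through 4.86 to 4.97. Every AA array lay above every ANA array, and the difference was 0.47 ± 0.067 (limma adjusted p = 0.000203). In sP it ran from 5.24 through 5.54 to 5.94, and in sNP from 4.76 through 4.99 to 5.20. Again the lines did not overlap, with a difference of 0.56 ± 0.084 (limma adjusted p = 0.000345), and this call remained with the marker index as a covariate (limma adjusted p = 0.0124).

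In HAD2 the dimmer probe set spread from 4.82 through 5.61 to 6.11 while LAD2 stayed between 4.88 and 5.12. The lines overlapped in the low HAD2 arrays, and the difference was 0.54 ± 0.13 (limma adjusted p = 0.0179). In P and NP the medians were 5.35 and 4.89 and the difference 0.45 ± 0.11 (limma adjusted p = 0.0493, and 0.138 with the Gapdh covariate). In HAD1 and LAD1 the medians were 8.23 and 6.80. The difference was 1.10 ± 0.27 and missed the threshold (limma adjusted p = 0.0515). HAD1 28 at 6.63 and LAD1 37 at 8.58 each lay in the range of the other line. Without these 2 departing arrays HAD1 ran from 7.71 to 9.08 and LAD1 from 6.58 to 7.27, with no overlap and a difference of 1.46 ± 0.16 (limma adjusted p = 7.89e-06).

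**Figure D2:**
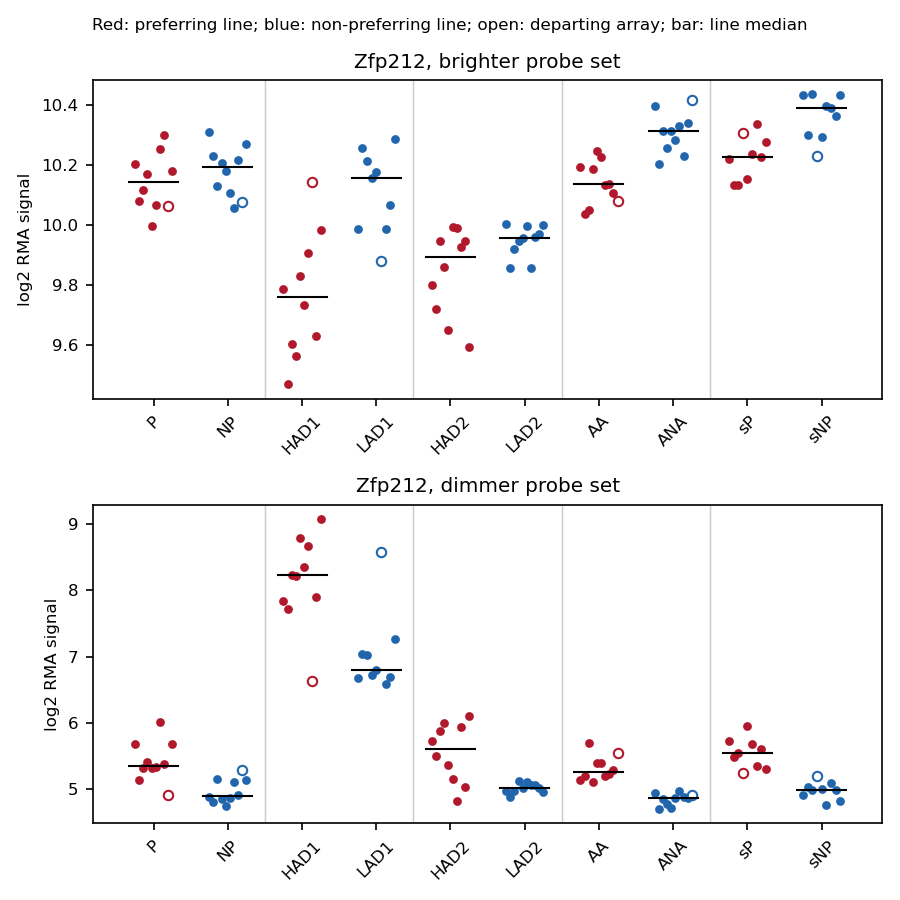
Each point is the log2 RMA signal of 1 array, by line, for the brighter (top) and dimmer (bottom) Zfp212 probe set, with vertical scales of their own. In every pair the median of the preferring line (red) is below that of the non-preferring line (blue) on top and above it below, and the open points of HAD1 and LAD1 lie among the other line.

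Over the whole table, 3 of 31042 probe sets (0.00966%) were called with 1 sign in 4 or more of the 5 pairs, and the dimmer Zfp212 probe set was among them. Both Zfp212 probe sets were among the 31 probe sets (0.0999%) called with 1 sign in 3 or more pairs, and no other member probe set was. None was called the same way in all 5 pairs with all arrays. Without the departing arrays, 1 probe set (0.00322%) was, the dimmer Zfp212 one. Zfp212 was one of the genes the list of examples was drawn up with, so these counts describe it and do not support it.

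Averaged over the 5 pairs, the brighter one had a difference of -0.16 ± 0.023 (limma adjusted p = 4.78e-07) and the dimmer one 0.62 ± 0.072 (limma adjusted p = 4.62e-10). The limma F test of whether the 5 differences are equal gave an adjusted p of 0.013 for the brighter set and 0.154 for the dimmer set, and without the departing arrays both sets were called (0.000155 and 7.11e-06). With the 5 pairs as the replicates, the dimmer set had an unadjusted limma p of 0.000737 and the brighter one of 0.0143. Both had an adjusted p of 0.948.

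Zfp956 is the next gene after Zfp212 in the order of the RefSeq rat gene table. The 2 belong to a run of 6 members, Zfp398, Zfp282, Zfp212, Zfp956, Zfp777 and Zfp746, with at most 5 other genes between any of them and the next. Zfp956 ran from 8.70 through a median of 8.88 to 9.11 in AA and from 8.14 through 8.38 to 8.53 in ANA. Every AA array lay above every ANA array, with a difference of 0.53 ± 0.068 (limma adjusted p = 5.47e-05). In sP it ran from 8.51 through 8.74 to 8.95 and in sNP from 8.23 through 8.45 to 8.61, a difference of 0.34 ± 0.067 (limma adjusted p = 0.00557). By the brightest probe set, it was the only member still called in sP/sNP with the marker index as a covariate (0.40, limma adjusted p = 0.0129). In that fit 0.851% of all genes were called. The differences in the other pairs were 0.13, -0.13 and -0.02, and only that of HAD1/LAD1 was called without the departing arrays (-0.20, limma adjusted p = 0.0428). The other 4 members of the run had differences between -0.10 and 0.15 in all 5 pairs, and none was called.

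The promoters of these 2 neighbours are shown because both genes were called in AA/ANA and sP/sNP, in opposite directions by the brighter Zfp212 probe set. They run from 250 bases before to 50 after the annotated start in RefSeq, build GRCr8, 5′ to 3′ along the gene. Capitals mark a GC box (GGGCGG, or CCGCCC on the other strand) or a CCAAT box (CCAAT, or ATTGG on the other strand). The Zfp212 window is chr4:78254359-78254658 and the Zfp956 window chr4:78286100-78286399, both on the plus strand.
Zfp212: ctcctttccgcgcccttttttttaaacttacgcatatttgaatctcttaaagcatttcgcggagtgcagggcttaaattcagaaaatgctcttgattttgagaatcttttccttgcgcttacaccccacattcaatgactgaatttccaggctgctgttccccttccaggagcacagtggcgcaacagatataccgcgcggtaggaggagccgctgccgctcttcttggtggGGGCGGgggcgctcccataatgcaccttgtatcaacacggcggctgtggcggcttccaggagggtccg
Zfp956: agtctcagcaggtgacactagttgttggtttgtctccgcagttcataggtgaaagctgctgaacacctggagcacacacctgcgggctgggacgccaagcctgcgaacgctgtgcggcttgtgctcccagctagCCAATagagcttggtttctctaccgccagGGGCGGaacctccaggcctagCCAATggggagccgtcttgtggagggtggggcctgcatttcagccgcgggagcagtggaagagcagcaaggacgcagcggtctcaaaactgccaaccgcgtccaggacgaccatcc
The Zfp212 window holds 1 GC box and 0 CCAAT boxes, and the Zfp956 window 1 GC box and 2 CCAAT boxes. Over the 178 members with a promoter in the table, 45.5% held a GC box and 43.8% a CCAAT box, beside 57.5% and 37.3% of 11700 genes on the array and 34.9% and 37.7% of all 27457 promoters of that length. The median GC content was 56.8% in members and 60% in genes on the array. These are matches of letters, not sites shown to be used.

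Zfp40 had the largest difference of any member in AA/ANA, lower in AA by 1.42 on the log2 scale. It ran from 9.26 through a median of 9.36 to 9.85 in AA and from 10.01 through 10.96 to 11.06 in ANA. The lines did not overlap, and the nearest arrays were the departing AA 19 and ANA 20. The difference was -1.42 ± 0.11 (2.67-fold, limma adjusted p = 1.37e-07), and -1.56 ± 0.058 without these 2 arrays, when ANA ran from 10.80 to 11.06. Zfp40 was also called lower in sP, with medians of 9.68 and 9.99 and a difference of -0.29 ± 0.076 (limma adjusted p = 0.0277), a call that was lost with the marker index as a covariate (adjusted p = 0.904). Its 5 differences were not equal (limma F test, adjusted p = 7.24e-21).

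Zfp61 was called in opposite directions in 2 pairs, and all 3 of its probe sets were called the same way each time. In AA it ran from 9.35 through a median of 9.49 to 10.45, where AA 19 was the highest, and in ANA from 10.07 through 10.34 to 10.64. The difference was -0.82 ± 0.11 (1.77-fold lower in AA, limma adjusted p = 0.000112), and without the departing arrays AA stayed under 9.58 and the lines did not overlap. In HAD2 it ran from 10.65 through 10.84 to 11.12, and in LAD2 from 9.67 through 10.12 to 10.78. The difference was 0.74 ± 0.12 (1.67-fold higher in HAD2, limma adjusted p = 0.000376), and the overlap came from LAD2 arrays near the top of that line. The other probe sets had differences of -0.91 and -0.64 in AA/ANA and of 0.78 and 0.81 in HAD2/LAD2.

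Zfp40 and Zfp61 were the members with the largest difference in AA/ANA, and their promoters are shown with the same marks, from RefSeq, build GRCr8. They lie on the minus strand at chr1:71658717-71659016 and chr1:88985610-88985909.
Zfp40: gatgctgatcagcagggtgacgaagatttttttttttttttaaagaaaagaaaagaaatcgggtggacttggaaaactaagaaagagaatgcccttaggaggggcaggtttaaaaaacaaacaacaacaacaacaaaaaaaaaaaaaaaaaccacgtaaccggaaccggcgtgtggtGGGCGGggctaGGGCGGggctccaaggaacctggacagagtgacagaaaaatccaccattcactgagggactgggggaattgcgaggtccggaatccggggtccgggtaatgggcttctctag
Zfp61: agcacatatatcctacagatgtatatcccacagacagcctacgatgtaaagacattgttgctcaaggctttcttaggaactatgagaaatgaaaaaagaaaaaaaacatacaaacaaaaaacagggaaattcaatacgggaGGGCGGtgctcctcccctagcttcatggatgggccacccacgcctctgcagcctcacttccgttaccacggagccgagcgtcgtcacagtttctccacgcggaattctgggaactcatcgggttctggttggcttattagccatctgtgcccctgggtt
The Zfp40 window holds 2 GC boxes and the Zfp61 window 1, and neither holds a CCAAT box in these letters.

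Zfp612 showed 2 levels in the HAD and LAD lines, in opposite arrangement in the 2 pairs. In HAD1 it ran from 10.86 through a median of 11.05 to 11.71, and in LAD1 from 10.89 through 11.69 to 11.82. The difference was -0.53 ± 0.11 (limma adjusted p = 0.0205), and HAD1 28 and LAD1 37 each lay among the other line. Without them the lines did not overlap, and the difference was -0.69 ± 0.048 (limma adjusted p = 9.33e-09). With all arrays no member was without overlap in HAD1/LAD1 (0.0141% of all genes were). Without these 2 arrays Zfp612 and Zfp212 were, by the brightest probe set (0.943% of all genes). In HAD2 it ran from 11.47 through 11.69 to 11.95 and in LAD2 from 10.80 through 10.95 to 11.15. Here no array overlapped, with a difference of 0.75 ± 0.056 (1.68-fold, limma adjusted p = 3.66e-09). In P/NP, AA/ANA and sP/sNP the difference was at most 0.05 in size.

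Zfp715 was lower in P, from 9.41 through a median of 9.72 to 9.90, than in NP, from 9.90 through 10.08 to 10.20. The lines met without overlap, and the difference was -0.35 ± 0.060 (limma adjusted p = 0.00442). In HAD2 it ran from 10.85 through 11.01 to 11.12 and in LAD2 from 10.58 through 10.74 to 10.96. That difference had the opposite sign, 0.24 ± 0.048 (limma adjusted p = 0.00316), with an overlap of the lines. The test of equal differences gave a limma F test adjusted p of 5.41e-07.

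**Figure D3:**
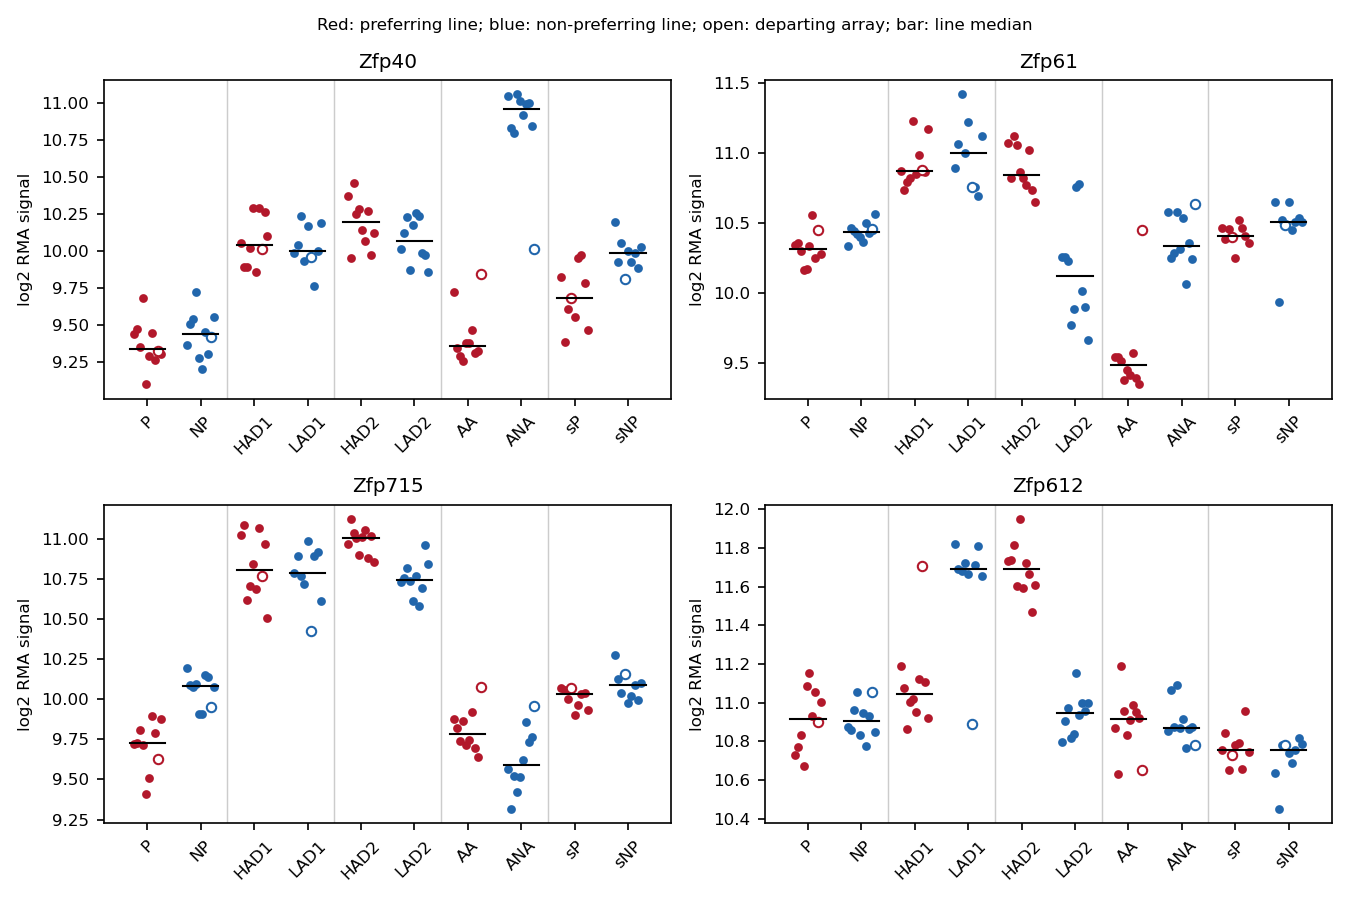
Each point is the log2 RMA signal of 1 array, by line, for Zfp40, Zfp61, Zfp715 and Zfp612, red for preferring and blue for non-preferring lines. By the brightest probe set, Zfp40 and Zfp956 are the members without overlap in AA/ANA. The opposite arrangement of Zfp61 in HAD2/LAD2 and AA/ANA and of Zfp612 in HAD1/LAD1 and HAD2/LAD2 can be read from the medians.

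Beside Zfp61, Zfp612 and Zfp715, 2 further members were called in opposite directions in different pairs, Zfp488 and Zfp707, which makes 5 (1.266% of all genes were). Zfp707 was lower in P, with medians of 7.16 and 7.77 and a difference of -0.55 ± 0.091 (limma adjusted p = 0.00312), and lower in HAD2 (-0.26 ± 0.068, limma adjusted p = 0.0271, and 0.0568 with the marker index). It was higher in sP, from 7.63 to 7.90, than in sNP, from 7.14 to 7.58, with no overlap and a difference of 0.37 ± 0.063 (limma adjusted p = 0.00154). By the brightest probe set, it was the only member without overlap there (0.499% of all genes had none). Zfp488, which takes part in oligodendrocyte differentiation, was lower in HAD1 (-0.52 ± 0.13, limma adjusted p = 0.0472), and higher in HAD2 (0.52 ± 0.13, adjusted p = 0.0158) and in sP (0.34 ± 0.10, adjusted p = 0.0395). The median difference of 4 oligodendrocyte markers in those pairs was 0.04, -0.29 and 0.18, with 0, 2 and 1 called, and their part in the result was not tested. With the Gapdh covariate the HAD1/LAD1 call of Zfp488 was lost (adjusted p = 0.0869).

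In P/NP the remaining calls were Zfp455 and Zfp81. Zfp455 ran from 7.24 to 7.57 in P and from 7.58 to 7.95 in NP, without overlap, a difference of -0.28 ± 0.051 (limma adjusted p = 0.00692). Zfp81 had medians of 7.06 and 7.34 and a difference of -0.29 ± 0.058 (limma adjusted p = 0.0121), and its lines overlapped. Zfp715 and Zfp455 were thus the 2 of 220 members without overlap in P/NP, where 0.0422% of all genes had none, and without the departing arrays Zfp707 joined them (0.598% of all genes).

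In HAD2/LAD2, Zfp180 and Zfp61, which lie in 1 run with Zfp112, Zfp111 and Zfp94, were both higher in HAD2. Zfp180 had medians of 13.04 and 12.74 and a difference of 0.28 ± 0.047 (limma adjusted p = 0.000448). Zfp780b was higher in HAD2 as well (0.29 ± 0.069, adjusted p = 0.0119). Zfp110, whose protein binds the neurotrophin receptor p75, had medians of 9.78 and 10.10 and was lower in HAD2 (-0.27 ± 0.055, adjusted p = 0.00341), as was Zfp446 (-0.23). Zfp612 was the only member without overlap in this pair, where 0.767% of all genes had none.

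In AA/ANA the calls beside Zfp40, Zfp61, Zfp212 and Zfp956 were all lower in AA. Zfp958l1 ran from 8.71 through a median of 9.15 to 9.72 in AA and from 9.70 through 9.85 to 10.11 in ANA, a difference of -0.69 ± 0.12 (limma adjusted p = 0.00103). Zfp317 had medians of 9.28 and 9.81 and a difference of -0.47 ± 0.074 (adjusted p = 0.000574), and its lowest ANA array was the departing ANA 20 at 9.17. Both were without overlap once the departing arrays were left out. Zfp939 (-0.27) and its neighbour Zfp619 (-0.22), and Zfp646 (-0.22), were called with smaller differences. With all arrays, 2 members did not overlap in AA/ANA by the brightest probe set (0.134% of all genes), and without the departing arrays 6 did not (0.893% of all genes).

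In sP/sNP the largest called differences were those of Zfp365 (-0.60 ± 0.18), a gene of the brain that binds DISC1, Zfp385a (0.55 ± 0.16), Zfp26 (-0.52 ± 0.093), Zfp950l1 (0.51 ± 0.12) and Zfp706 (-0.37 ± 0.10). Zfp26 ran from 8.49 through a median of 8.89 to 9.07 in sP and from 8.88 through 9.36 to 9.59 in sNP. Its difference had a limma adjusted p of 0.00209, and only the departing sNP 4 reached into sP. Zfp536, a repressor of neuronal differentiation, was higher in sP (0.37 ± 0.11), and 3 of its 4 probe sets were called the same way. Zfp91, a ubiquitin ligase, was higher by 0.21, and its 8 probe sets shared the sign with 2 of them called. Zfp365 ran from 9.23 to 10.71 in sP and from 10.21 to 11.15 in sNP, with a wide overlap (limma adjusted p = 0.0389). The marker index, in which the mean of the septal and pallidal markers is taken from that of the spiny neuron ones, had a median of 3.86 in sP (1.51 to 4.62) and of 4.67 in sNP (3.57 to 5.27). In P it spread more widely, from 0.037 through a median of 3.84 to 5.15, and in NP from 2.22 through 4.26 to 5.18. As a covariate in P/NP it gave 8 called members, among them the 4 called without it. With this index as a covariate in sP/sNP, 1 of the 26 calls was kept, Zfp956. With the Gapdh measure 4 were kept (Zfp26, Zfp956, Zfp950l1 and Zfp707), beside 2.82% of all genes called. With the marker covariate the difference of Zfp365 was -0.08 and that of Zfp26 -0.29. The part of tissue composition in these calls was not tested further, and in bulk tissue fewer cells of a type and less RNA per cell cannot be told apart. Zfp950l1 was read by a probe set that also matches other transcripts, so its identity is uncertain.

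**Figure D4:**
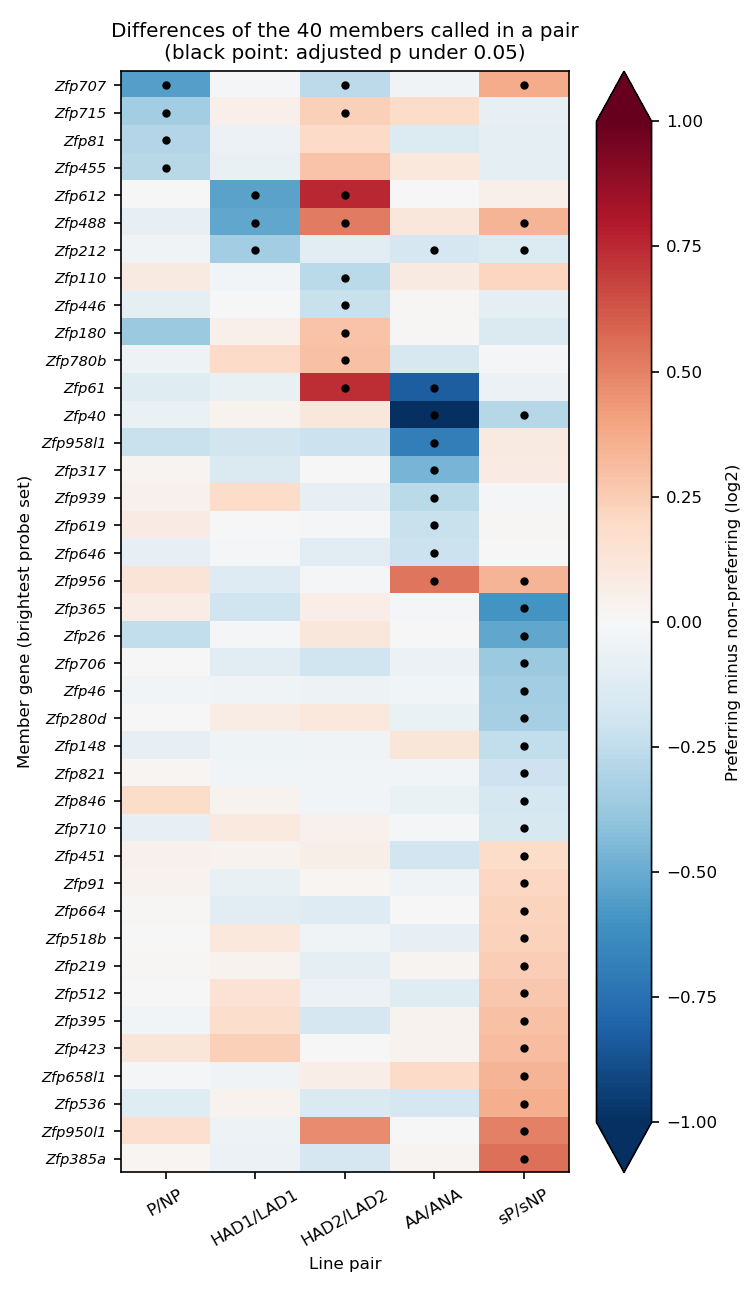
Colour gives the difference of preferring minus non-preferring line (log2, from -1 to 1, with Zfp40 in AA/ANA beyond the scale at -1.42) for the 40 members called in at least 1 pair, ordered by the first pair that called them and by size. Black points mark adjusted p under 0.05: 32 of the 40 rows hold a single point, and only Zfp212, Zfp488 and Zfp707 hold 3.

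Of the 5 with the highest signal, Zfp180 and Zfp664 were called, the latter in sP/sNP (0.22 ± 0.062), while Zfp330, Zfp260 and Zfp36l1 were called in no pair. Nor were the 3 with the lowest signal, Zfp839, Zfp37 and Zfp933l1.

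Of a list of 15 members with a known role, 3 were called in any pair and 12 in none, a share near the 20.9% of all genes. Zfp36, Zfp36l1 and Zfp36l2, which destabilise AU-rich messenger RNA, had differences between -0.10 and 0.19, and Zfp57, which keeps methylation at imprinted genes, between -0.05 and 0.09. Zfp598, a ubiquitin ligase of ribosome quality control, and Zfp410, an activator of Chd4, stayed between -0.03 and 0.08, and Zfp143, Zfp384, Zfp281 and Zfp354a between -0.18 and 0.10. The called ones were Zfp110 in HAD2/LAD2, and Zfp423 (0.31 ± 0.10) and Zfp148 (-0.24 ± 0.066) in sP/sNP. Zfp503, a transcriptional repressor in striatal development, had its largest difference there too (-0.46, limma adjusted p = 0.0632, and -0.52 with 0.0493 without the departing arrays), where the spiny neuron markers were lower. Zfp521, a relative of Zfp423, had differences of 0.31 in AA/ANA and 0.23 in HAD2/LAD2, neither of them called.

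Of the corepressor genes that KRAB proteins act through, 38 of 44 listed were measured and 5 were called in any pair (13.2%, beside 20.9% of all genes). Sumo2 was higher in HAD1 (0.23 ± 0.054, limma adjusted p = 0.0427). In sP/sNP, Hdac2 (-0.25) and Atrx (-0.30) were lower and Mta3 (0.39) and Gatad2a (0.22) higher. Trim28 and Setdb1 were called in no pair, with differences between -0.08 and 0.0020 and between -0.12 and -0.0079.

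By the brightest probe set, 5 members had the same sign in all 5 pairs (2.27%, beside 6.37% of all genes): Zfp212, Zfp46 and Zfp830 lower, and Zfp469 and Zfp53 higher. For Zfp830, Zfp469 and Zfp53 every difference was at most 0.12 in size and none was called. The average difference was called for 7 members (3.08% of all genes), again by the brightest probe set, and Zfp212 was the only one of them with the same sign throughout. The others were Zfp40 (-0.32), Zfp958l1 (-0.24), Zfp317 (-0.10) and Zfp646 (-0.08), lower on average, and Zfp956 (0.17) and Zfp658l1 (0.11), higher. Dimmer probe sets could also hold 1 sign. Those of Zfp422 (1374780_at, -0.23, limma adjusted p = 0.00282) and Zfp462 (1372480_at, -0.12, limma adjusted p = 0.0207) were lower in all 5 pairs. The brighter set of Zfp422 was higher in 4 pairs and that of Zfp462 lower in 4, and neither average was called. Without AA/ANA the averages of Zfp40, Zfp956 and Zfp317 were no longer called, and that of Zfp317 was not called without HAD1/LAD1 either. The test of equal differences was called for 26 members, or 11.8%, as for 11.8% of all genes. With the pair as the unit of replication no member was called by limma (0 of 14217 genes were), 7 members had an unadjusted p under 0.05 (3.69% of all genes), and the lowest adjusted p was 0.948.

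Of the members, 215 were placed in the RefSeq gene order (GRCr8), and 76 of them lay in 27 runs of 2 to 6 with at most 5 other genes between neighbours. Of the members in these runs 18.4% were called in any pair, and of those outside them 18%. In 5 combinations of a run and a pair, 2 members were called together: Zfp180 with Zfp61, Zfp939 with Zfp619, Zfp26 with Zfp846, and Zfp212 with Zfp956 in AA/ANA and in sP/sNP. The members of the first 3 combinations moved in the same direction, and those of the last 2 in opposite directions by the brighter probe set of Zfp212. Genes measured within 20 protein-coding places of a called member were counted once each, without the called members. Of these, 4.17% of 72 were called in P/NP, 0% of 76 in HAD1/LAD1, 6.21% of 145 in HAD2/LAD2, 3.15% of 127 in AA/ANA and 11.9% of 570 in sP/sNP. The shares of all genes in the same order were 0.935%, 0.95%, 4.47%, 1.84% and 15.1%, so the neighbours were above them in P/NP, HAD2/LAD2 and AA/ANA and below them in HAD1/LAD1 and sP/sNP, with no test made.

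The median range of a member within a line was 0.44 over 2200 combinations of member and line. Some ranges were far wider, such as those of Zfp365 in HAD1 (2.27), Zfp503 in P (2.27) and Zfp385b in P (2.02). A gap above 1 between neighbouring arrays appeared in 3 combinations. These 3 concern Zfp597 and Zfp68, picked out after their values were seen. In P, Zfp597 ran from 9.51 to 10.40 on 9 arrays and was 7.91 on P 5. In NP it ran from 7.54 to 8.29 on 8 arrays and was 10.02 on NP 5 and 10.50 on NP 9. The arrays thus fell at 2 levels, with P mostly at the upper and NP mostly at the lower one. The difference of 1.331 was the largest of any member in P/NP and missed the threshold (limma adjusted p = 0.101), and without the departing P 9 and NP 9 it was 1.58 (adjusted p = 0.0114). P 5 and NP 5 were no departing arrays.

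Zfp68 ran from 9.55 to 10.10 on all AA and ANA arrays but 2, and these were the departing AA 19 at 11.35 and ANA 20 at 11.09. In the lines of the other 4 pairs it ran from 10.42 to 11.92. The difference between AA and ANA was -0.16 with all arrays (limma adjusted p = 0.977) and -0.21 without the 2 arrays (adjusted p = 0.0406).

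**Figure D5:**
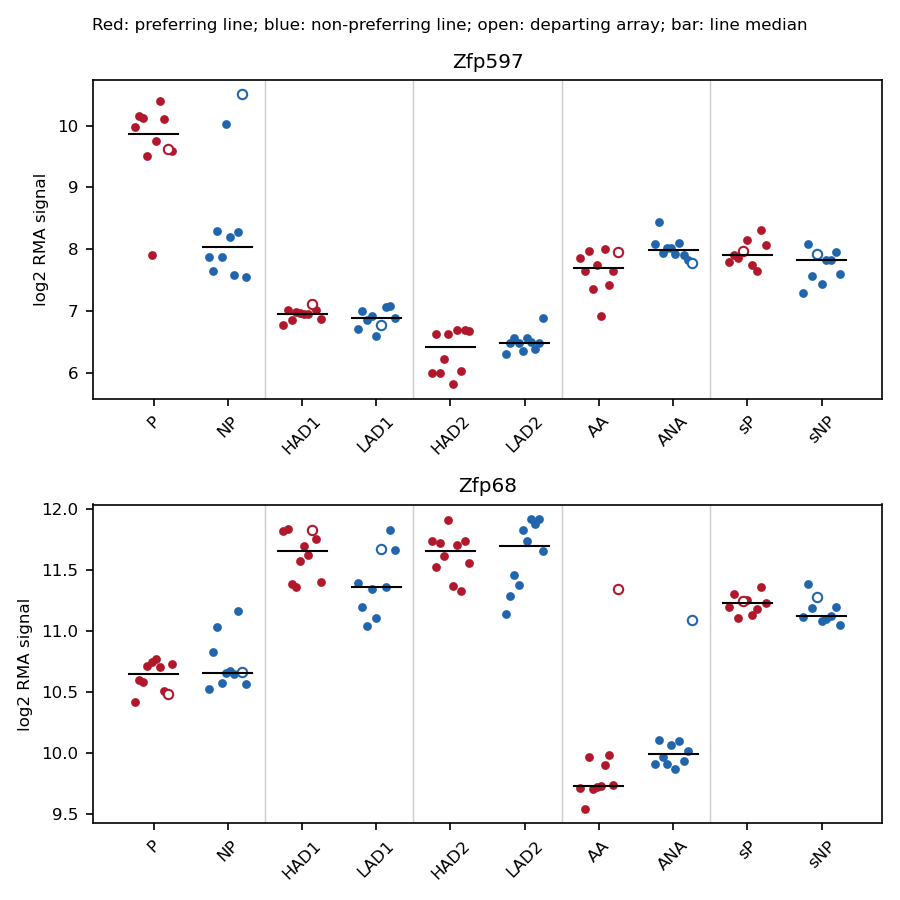
Each point is the log2 RMA signal of 1 array, by line, for Zfp597 (top) and Zfp68 (bottom), with departing arrays open. P and NP each hold arrays at both Zfp597 levels, and AA 19 and ANA 20 lie above 11 for Zfp68 while the other AA and ANA arrays lie between 9.55 and 10.10.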

How the data were processed

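Trizol and RNeasy columns gave the RNA, and 25 ng of it was labelled with biotin through 2 amplification cycles, per the labels' protocols. The authors deposited 1 table of log2 signals made by RMA, per the submitters' processing notes; its version and options are not known here. The table has 31099 probe sets, of which 57 controls were left out. Symbols came from the platform annotation: 20826 probe sets have 1 symbol, 436 several and 9780 none, and only the first were named.

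Each pair was fitted on its own arrays with limma 3.58.1 in R 4.3.3 (two-sided, empirical Bayes), adjusted over all 31042 probe sets. A joint fit of all 97 arrays gave the average over pairs and the F test of equal differences. The members, lists and named genes were chosen with earlier results of these data known. Members were named where they were given as examples, were among the 6 largest called differences of a pair, were called in 3 pairs, were among the 5 highest or 3 lowest in signal, were called on average with 1 sign, had probe sets called in opposite directions, or were on a list of known roles; other names were chosen after their values were seen or complete a count. Alternatives left out departing arrays, changed the normalization, dim-probe filter, variance model, probe set or threshold, or added a covariate. On simulated data of the P/NP size, 24% of planted differences of 0.25 and 88% of 0.5 were recovered, and 8.28% of the calls were false. These data were independent normal values with variances averaged over all lines and no departing arrays, so the shares need not hold for the real arrays. The number of arrays limits the precision. No columns were identical. Apart from those with the pair as the replicate, the p-values measure the spread between animals of these lines. With the pair as the replicate they measure the spread between the 5 pairs. Protein classes were not analysed here.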

Additional observations from a re-analysis of the deposited data

Results flagged for a closer look

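In 7 of 78 line groups tested, 1 array stood apart from its line by Dixon's ratio of its gap to the range, where chance marks about 1 in 20 groups. Of the 7 arrays, 6 were departing arrays. Zfp61 was highest in AA on AA 19 (10.45 against at most 9.58; ratio 0.795), and in ANA the lowest array was ANA 20 for Zfp40 (10.01 against at least 10.80; ratio 0.749) and Zfp317 (9.17 against at least 9.69; ratio 0.74). Zfp612 was highest in HAD1 on HAD1 28 (11.71; ratio 0.616) and lowest in LAD1 on LAD1 37 (10.89; ratio 0.826), and Zfp26 was lowest in sNP on sNP 4 (8.88; ratio 0.606). The array that was no departing one was LAD2 17 for Zfp180 (13.02 against at most 12.82; ratio 0.485).

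The 5 line-pair differences were unequal by the limma F test for 17 of the 41 named members. The adjusted p-values were lowest for Zfp40 (7.24e-21), Zfp612 (2.44e-16), Zfp61 (2.43e-14), Zfp956 (1.99e-09), Zfp707 (3.51e-08) and Zfp715 (5.41e-07). They were 6.63e-06 for Zfp780b, 6.85e-06 for Zfp317, 7.52e-06 for Zfp180, 2.9e-05 for Zfp958l1 and 5.39e-05 for Zfp488. For Zfp26, Zfp455, Zfp110, Zfp212, Zfp81 and Zfp664 they were 0.00328, 0.00388, 0.0111, 0.013, 0.0251 and 0.0316. Most of these members had been named because a pair called them, so the share among them is no measure for the members as a whole.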

How the results depend on the processing

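Of 615 values of named members under an alternative, 563 kept their direction and their side of the threshold, 43 were no longer called, 9 became called and 0 reversed. The counts of called members that moved by over 1.5 times were as follows, and the cause was not tested. In P/NP the count of 4 became 8 with the marker index. In HAD1/LAD1 the count of 3 became 6 without departing arrays, 5 in a fit over all arrays, 1 with the Gapdh covariate and 0 at adjusted p under 0.01. In HAD2/LAD2 the count of 9 became 15 in a fit over all arrays, 14 when any probe set counted and 5 at adjusted p under 0.01, as did the 9 of AA/ANA. In sP/sNP the count of 26 became 4 with the Gapdh covariate, 1 with the marker index and 3 at adjusted p under 0.01. With each pair left out in turn, 5 to 12 members were called on average (7 with all; 12 without HAD1/LAD1), 18 to 30 were called by the test of equal differences (26 with all), and 0 by the test with the pair as the replicate. Centring each array on its median gave 8 members of 1 sign in place of 5. Member and pair combinations without overlap were 6, but 14 without departing arrays and 3 after median centring. The dimmer Zfp212 probe set was not tested under the filter on dim probe sets.

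P and NP, and sP and sNP, share animal numbers, and the labels do not say whether a number pairs the animals. The correlation of same-numbered arrays, after removing line means, had a median of 0.335 in P/NP (-0.59 to 0.77) and 0.108 in sP/sNP (-0.22 to 0.56). It was over 0.1 in 6 of 10 and 5 of 9 numbers, and 4 and 2 arrays correlated best with their own number. Shared handling by number was not tested, and the main fits left the number out. A fit with the number as a replicate block called 4 members in P/NP and 32 in sP/sNP.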

Other observations

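Other zinc finger families of the table differed in how often they were called in any pair, given here as counts with no test. Of 14 Klf genes, Krüppel-like factors with C2H2 fingers, 6 were called (42.9%), and of 4 Egr genes, activity-induced factors, 2 were called. Of 35 Zbtb genes, which join fingers to a BTB domain, 4 were called (11.4%), of 15 Zc3h genes 1, and of 18 Zdhhc genes, palmitoyl transferases, 4 (22.2%). Of 9 Znf-named genes 1 was called (11.1%), of 11 Zkscan and Zscan genes 2 (18.2%), and of 17 Zmynd, Zcchc and Zc2hc genes 2 (11.8%). The shares beside them are 18.2% for the Zfp-named members and 20.9% for all genes. The 6 calls of Klf genes (4 higher and 2 lower in sP), the 2 of Egr genes (lower in sP) and the 4 of Zdhhc genes were all in sP/sNP. In that pair the spiny neuron markers differed and 15.1% of all genes were called.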
